A study of Mus musculus with 12 samples.

Results

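The tumor necrosis factor (TNF) family was examined through the genes whose symbols begin with Tnfrsf, for receptors, or Tnfsf, for ligands, with 1 row of the table left out. They were 31 of 24062 genes, 19 receptors and 12 ligands, and membership rests on the symbol. RNA from whole mouse hearts was sequenced after polyA selection, with 1 library per mouse and 3 mice in each of 4 groups. The study asked how loss or mutation of Lemd2, which encodes a protein of the inner nuclear membrane, changed expression in the heart. Adult hearts, at 2 months, came from wild-type mice (WT) or from mice homozygous for the Lemd2 c.T38>G knock-in allele (KI/KI), which was present in every cell type. Newborn hearts, at postnatal day 1 (P1), came from Lemd2-floxed controls or from mice with cardiac-specific deletion of Lemd2 (cKO). The cKO carried the same floxed exon 1 together with Myh6-Cre, a transgene driven by a cardiomyocyte promoter, so that the other cells of the heart kept Lemd2. The floxed controls are described without this transgene, so its presence and the deletion of Lemd2 cannot be told apart. Founders of both lines were mated to C57BL/6N mice. Model and age cannot be told apart when adult and newborn hearts are set side by side.

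TNF family ligands are membrane-bound or shed trimers that bind receptors with cysteine-rich repeats. Receptors with a death domain, such as Tnfrsf1a, can start caspase signalling, and most others bind TRAF adaptors that lead to NF-kB and MAP kinase signalling. A few members are decoys that bind ligand and do not signal. In heart and skeletal muscle the family is best known for TNF itself and for the pair of TWEAK, encoded by Tnfsf12, and its receptor Fn14, encoded by Tnfrsf12a, which is induced in injured tissue.

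The libraries held between 37063669 and 44789753 counted reads, and 3 reads corresponded to at most 0.0809 CPM, the unit of read counts scaled to library totals, which covers counting error only. Lemd2 was at 32.0, 34.8 and 32.9 CPM in WT, at 25.6, 25.2 and 24.8 CPM in KI/KI, at 24.3, 25.0 and 25.4 CPM in floxed and at 6.59, 13.1 and 11.4 CPM in cKO hearts. Lemd2 fell by 1.27 on the log2 scale at P1 (edgeR adjusted p = 0.0142), although without floxed replicate 1 or 2 the edgeR adjusted p was 0.0761 or 0.0594. The adult log2 fold change of Lemd2 was -0.39 (edgeR adjusted p = 0.181, DESeq2 adjusted p = 0.000385), and each KI/KI heart lay below each WT heart. The 4 cardiomyocyte markers Myh6, Tnnt2, Actc1 and Ryr2 summed to between 32817 and 71166 CPM in every heart, and in both models the mutant sums lay below those of the controls. Heart cKO replicate 4 stood apart in sex, with Xist at 612 CPM and the Y-linked Ddx3y at 0.0399 CPM, and the other hearts had Xist at 2.02 CPM or less and Ddx3y at 96.9 CPM or more. Summed lung epithelium markers reached 95.5 CPM in WT replicate 3, 34.1 CPM in KI/KI replicate 4, 24.9 and 38.3 CPM in floxed replicates 1 and 2 and 15.6 CPM in cKO replicate 4, against 3.01 CPM or less in the others. Fewer cells of a type and less RNA per cell cannot be told apart in these whole-heart libraries.

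Of the 31 members, 16 reached a mean of 1 CPM in at least 1 group, 13 receptors and 3 ligands. The member just inside this limit was Tnfrsf26, at 1.17 CPM in KI/KI hearts, and the one just outside was Tnfrsf4, at 0.743 CPM in floxed hearts. The other 15 members, 6 receptors and 9 ligands, stayed at or under 0.743 CPM in every group mean and 0.891 CPM in every heart. Among them, the row for the readthrough transcript Tnfsf12Tnfsf13 was at 0 reads in all libraries. This row matched no annotated gene, but the annotation holds a readthrough gene, Tnfsfm13, that shares exon bases with Tnfsf12 and Tnfsf13 on the same strand. Reads in shared exons may not have been counted for such a row, so its 0 does not show that the transcript was absent. At P1 19 members passed the filter on low counts and were tested, in adults 20. In cKO hearts Tnfrsf12a, Tnfrsf23 and Tnfrsf1b rose and Tnfrsf19 fell, and in KI/KI hearts no member passed the threshold.

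The promoter sequences of the 3 receptors that changed by more than 2-fold at P1 are shown because these genes carry the main differences. Each is the 250 bases before a RefSeq transcript start (assembly GRCm38.p6), read 5′ to 3′ on the gene's own strand, which is the minus strand for all 3. Capitals mark GC boxes (GGGCGG on either strand, so also CCGCCC) and TATA boxes (TATAAA on either strand, so also TTTATA), and matches that touch or overlap run together.
Tnfrsf12a, chr17:23677450-23677699: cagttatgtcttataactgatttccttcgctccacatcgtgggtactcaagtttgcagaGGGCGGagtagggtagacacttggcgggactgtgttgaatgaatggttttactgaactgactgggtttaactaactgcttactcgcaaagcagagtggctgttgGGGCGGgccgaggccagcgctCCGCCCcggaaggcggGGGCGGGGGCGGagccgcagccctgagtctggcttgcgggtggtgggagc
Tnfrsf19, upstream start, chr14:61046856-61047105: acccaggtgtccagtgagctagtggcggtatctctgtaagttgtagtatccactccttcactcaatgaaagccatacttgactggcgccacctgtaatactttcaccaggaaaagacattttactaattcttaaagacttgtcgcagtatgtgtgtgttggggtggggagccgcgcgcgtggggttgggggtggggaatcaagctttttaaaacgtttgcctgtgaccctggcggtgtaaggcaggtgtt
Tnfrsf19, downstream start, chr14:61037988-61038237: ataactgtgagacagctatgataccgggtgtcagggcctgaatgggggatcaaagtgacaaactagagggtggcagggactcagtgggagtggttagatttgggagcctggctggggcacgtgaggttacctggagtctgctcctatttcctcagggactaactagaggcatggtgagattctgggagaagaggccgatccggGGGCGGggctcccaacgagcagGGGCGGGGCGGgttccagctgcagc
Tnfrsf23, chr7:143685876-143686125: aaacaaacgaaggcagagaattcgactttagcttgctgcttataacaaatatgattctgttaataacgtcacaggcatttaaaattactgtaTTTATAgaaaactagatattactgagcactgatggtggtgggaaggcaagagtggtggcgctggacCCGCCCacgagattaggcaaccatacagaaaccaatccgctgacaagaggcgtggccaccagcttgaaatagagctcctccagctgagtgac

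The Tnfrsf12a window held 5 GC boxes and no TATA box, and 58.8% of its bases were G or C. The window of the upstream Tnfrsf19 start held neither motif at 50% G or C, and that of the downstream start held 3 GC boxes at 59.2%. The Tnfrsf23 window held 1 GC box and 1 TATA box at 44.8%. This TATA match began 158 bases before the start and read TATAAA on the opposite strand. Over all 32851 windows of this length, 32.7% held a GC box and 12.4% a TATA box, and the median share of G or C was 52.4%. The AP-1 type motif TGANTCA, searched on both strands and held by 6.75% of all windows, was in none of these 4. RefSeq windows were matched for 24 of the 31 members. A match describes the letters of the window and says nothing of binding.

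The question of the P1 comparison was which family members differed between cKO and floxed hearts. Tnfrsf12a, a small receptor that binds TRAF adaptors and has no death domain, lies on chromosome 17 (23675445 to 23677468, minus strand, 2 merged exons, GRCm38). It was at 18.2, 17.8 and 33.7 CPM in the floxed hearts and at 89.8, 105 and 109 CPM in the cKO hearts. All 3 cKO hearts were above all 3 controls, and the lowest cKO heart was well above floxed replicate 3, the highest control. The group means were 23.2 ± 9.07 and 101 ± 10.02 CPM (SD, n = 3 each). Tnfrsf12a was 4.35-fold higher in cKO hearts, a log2 fold change of 2.12 (SE 0.25, edgeR adjusted p = 0.00637). The call held without any 1 of the 6 hearts, with log2 fold changes from 1.95 to 2.48, and the value without cKO replicate 4 was 2.19.

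The ligand of Tnfrsf12a, TWEAK, did not pass the threshold. Its gene Tnfsf12 was at 4.78, 4.67 and 3.604 CPM in floxed and at 5.63, 4.73 and 5.54 CPM in cKO hearts, and the groups overlapped. Its log2 fold change was 0.28 (SE 0.17, edgeR adjusted p = 0.287). Of the exon bases of Tnfsf12, 48.3% are shared with the readthrough gene Tnfsfm13 on the same strand, and reads from these bases cannot be told apart.

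**Figure D1:**
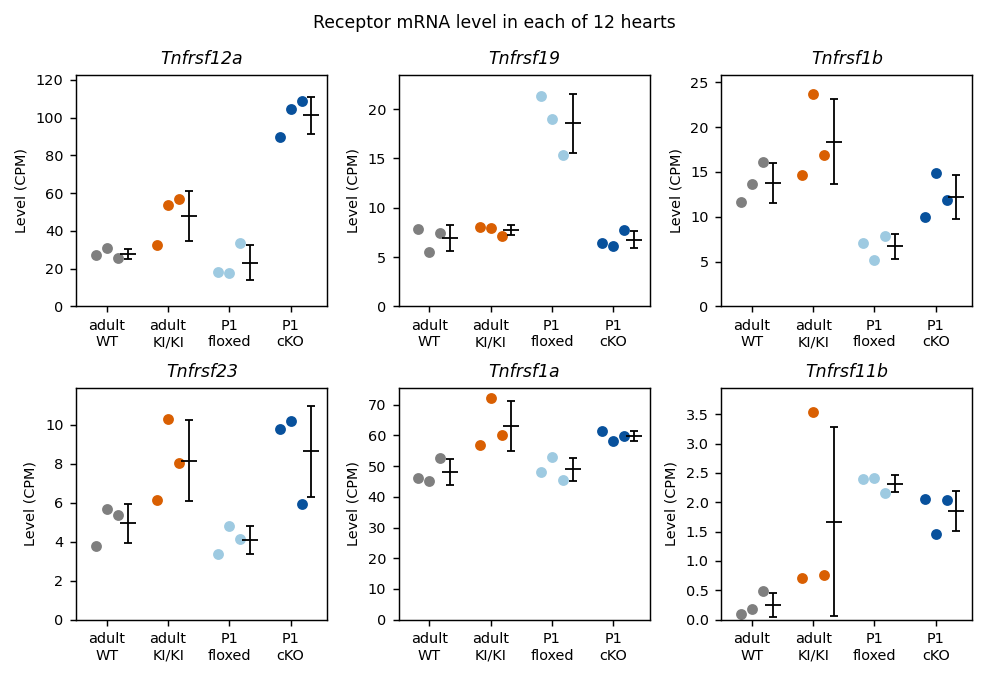
Level of 6 receptors in CPM (vertical axes, each from 0) in every heart of the 4 groups (points), with the group mean and SD of 3 hearts in black. Tnfrsf12a in cKO hearts lies at 89.8 CPM or above against 33.7 CPM or below in floxed hearts, Tnfrsf19 lies at 7.78 CPM or below against 15.3 CPM or above, and the high mean of Tnfrsf11b in KI/KI hearts comes with 1 heart at 3.53 CPM.

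Tnfrsf19, also called TROY, is a receptor known from the developing nervous system and skin (chromosome 14, 60963875 to 61046490, minus strand). Its level was 21.3, 19.0 and 15.3 CPM in the controls and 6.41, 6.13 and 7.78 CPM in cKO hearts. Every cKO heart was below every control, with no overlap. Tnfrsf19 was 2.75-fold lower in cKO hearts, a log2 fold change of -1.46 (SE 0.17, edgeR adjusted p = 0.00634). The call held without any 1 of the 6 hearts (-1.58 to -1.35), and the value without cKO replicate 4 was -1.44.

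Tnfrsf1b encodes TNFR2, a TRAF-binding receptor for TNF best known from immune and endothelial cells. It was at 7.06, 5.17 and 7.80 CPM in floxed and at 10.001, 14.9 and 11.8 CPM in cKO hearts, without overlap. The log2 fold change was 0.87 (SE 0.20, edgeR adjusted p = 0.0310), or 1.83-fold. This call was lost without floxed replicate 1 (0.91, edgeR adjusted p = 0.118), floxed replicate 2 (0.71, 0.0949) or cKO replicate 5 (0.71, 0.108), and kept without cKO replicate 4 (0.99, 0.0332). Macrophage markers moved in the same direction. The summed level of Csf1r, Cd68, C1qa and Lyz2, 4 of the 5 genes of that list, was 53.5 to 65.8 CPM in floxed and 85.1 to 124 CPM in cKO hearts, all 4 were higher and 3 were called, and none was at 0. The fibroblast markers Col1a1, Tcf21, Dcn and Pdgfra summed to 1395 to 1502 CPM in floxed and 1653 to 2091 CPM in cKO hearts, with Col1a1 and Tcf21 called higher. Col1a1 carried this sum, with means of 1031 and 1522 CPM, while Dcn and Pdgfra had log2 fold changes of -0.14 and -0.16 (edgeR adjusted p = 0.568 and 0.490). Without floxed replicate 1 or 2 none of these 5 marker calls held (edgeR adjusted p from 0.0512 to 0.128). Over the 6 fits that each left out 1 heart, Cd68 stayed called in 4, C1qa and Col1a1 in 2, and Lyz2 and Tcf21 in 1. Cardiomyocyte markers moved the other way, with sums of 36755 to 43072 CPM in floxed and 32817 to 35604 CPM in cKO hearts, and 3 of the 4 were lower, Ryr2 as the called one (-0.82, edgeR adjusted p = 0.0114, and 0.0636 without floxed replicate 1). Endothelial sums overlapped, at 911 to 995 CPM in floxed and 924 to 1339 CPM in cKO hearts, with 2 of the 4 markers higher and 2 lower. Pecam1 was the called one (0.34, edgeR adjusted p = 0.0415), a call lost without each of the 6 hearts (0.0519 to 0.170). Of 3 smooth muscle and pericyte markers, Pdgfrb was called higher (0.44, edgeR adjusted p = 0.0396) and Myh11 lower (-0.65, 0.0494). Of 4 T cell markers only Cd4 was tested, and it was called higher (1.95, edgeR adjusted p = 0.0334). With 1 heart left out, Pdgfrb stayed called in 1 of 6 fits, and Myh11 and Cd4 in 2. The part of any of these cells in the receptor differences, Tnfrsf12a and Tnfrsf19 included, was not tested.

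Tnfrsf23 encodes a decoy receptor for TRAIL and lies on chromosome 7 between close relatives (143665809 to 143685872, minus strand). It was at 3.36, 4.80 and 4.12 CPM in floxed and at 9.78, 10.2 and 5.93 CPM in cKO hearts. The groups did not overlap, but cKO replicate 6 lay close to the controls. The log2 fold change was 1.08 (SE 0.25, edgeR adjusted p = 0.0318), or 2.12-fold. It is the least secure of the 4 calls, since it held only without cKO replicate 6 (1.29, edgeR adjusted p = 0.00432) and was lost without each of the other 5 hearts (0.95 to 1.20, edgeR adjusted p from 0.0662 to 0.137). The neighbouring paralogs Tnfrsf22 and Tnfrsf26 had log2 fold changes of 0.0077 (SE 0.29) and 0.43 (SE 0.29), with edgeR adjusted p of 0.987 and 0.321. Counts of these 3 genes are uncertain to the extent that reads match more than 1 copy, and 4.14% of the exon bases of Tnfrsf23 also lie under an antisense transcript.

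Counted over the family, 3 of 19 tested members rose at an edgeR adjusted p under 0.05, against 9.32% of all genes, and 1 fell, against 7.57%. Past 2-fold there were 2 higher members, against 2.85% of all genes, and 1 lower member, against 1.78%. The groups did not overlap for 7 members that were higher in cKO hearts, against 19.9% of all genes, and for 2 that were lower, against 19.1%. The median log2 fold change was 0.28 over the 19 members and -0.0043 over all 15317 genes, and 14 members were higher and 5 lower.

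The remaining receptors did not pass the threshold at P1, although in a fit of all 12 libraries Tnfrsf11a (edgeR adjusted p = 0.0406) and Tnfrsf14 (0.0385) did. Tnfrsf1a, which encodes the widely expressed death domain receptor TNFR1, was at 48.2, 53.0 and 45.6 CPM in floxed and at 61.3, 58.1 and 59.8 CPM in cKO hearts. The groups did not overlap and the shift was small, with a log2 fold change of 0.29 (SE 0.088, edgeR adjusted p = 0.0660, DESeq2 adjusted p = 0.0298). Tnfrsf14, the receptor HVEM of lymphocytes and epithelia, was at 0.925, 0.674 and 0.554 CPM in floxed and 1.12, 1.08 and 1.34 CPM in cKO hearts, also without overlap (log2 fold change 0.71, SE 0.27, edgeR adjusted p = 0.110). Tnfrsf11a, the receptor RANK of the osteoclast pathway, overlapped between the groups at 3.18, 2.50 and 1.98 against 5.33, 4.02 and 3.16 CPM (0.72, SE 0.28, edgeR adjusted p = 0.115), and was past the threshold without cKO replicate 6 (0.88, edgeR adjusted p = 0.0458). Its secreted decoy partner Tnfrsf11b, osteoprotegerin, was at 2.39, 2.41 and 2.15 CPM in floxed and 2.06, 1.46 and 2.04 CPM in cKO hearts, lower in each cKO heart (-0.33, SE 0.21, edgeR adjusted p = 0.301). Tnfrsf21, a death domain receptor, lay between 12.3 and 14.4 CPM in floxed and between 10.2 and 20.5 CPM in cKO hearts (0.13, SE 0.23, edgeR adjusted p = 0.723). Tnfrsf25, a death domain receptor of T cells, and Tnfrsf18, the T cell receptor GITR, had log2 fold changes of 0.11 (SE 0.41) and -0.13 (SE 0.25), and 27.2% of the exon bases of Tnfrsf18 lie under the antisense gene Gm16008.

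Among the ligands Tnfsf10, which encodes TRAIL, was at 13.1, 8.43 and 6.70 CPM in floxed and at 6.27, 5.85 and 11.4 CPM in cKO hearts, with wide overlap. Its log2 fold change was -0.28 (SE 0.33, edgeR adjusted p = 0.576). Tnfsf13b, which encodes the B cell factor BAFF, was at 0.812, 0.782 and 0.554 CPM against 1.02, 0.833 and 1.19 CPM, a log2 fold change of 0.49 (SE 0.27, edgeR adjusted p = 0.240). No ligand of the 5 that were tested at P1, Tnfsf9, Tnfsf10, Tnfsf12, Tnfsf13 and Tnfsf13b, passed the threshold.

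**Figure D2:**
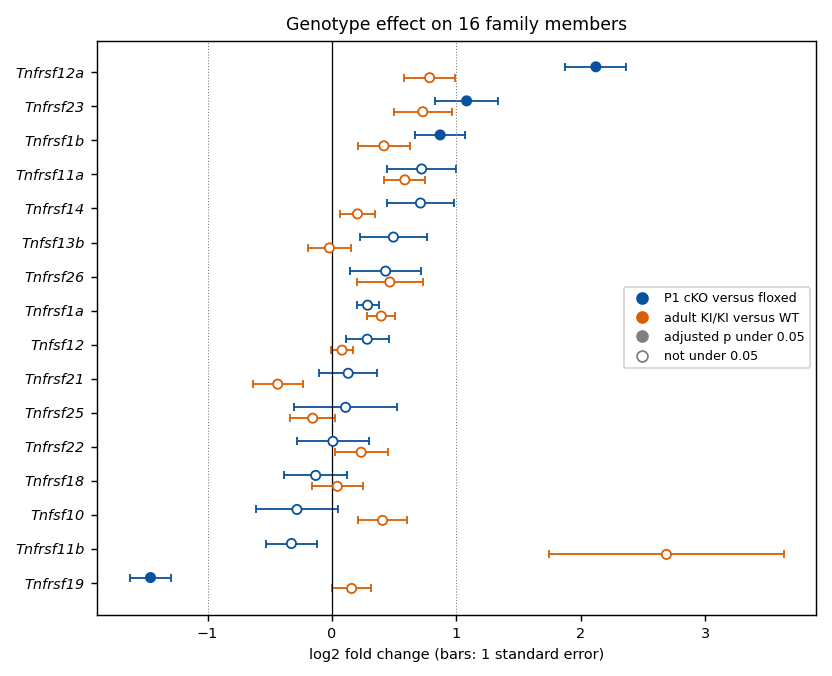
Log2 fold change of the 16 members at 1 CPM or more (horizontal axis, bars of 1 SE) in cKO against floxed hearts at P1 (blue) and KI/KI against WT adult hearts (orange), filled where the edgeR adjusted p was under 0.05 and with dotted lines at a 2-fold change. Only Tnfrsf12a, Tnfrsf23, Tnfrsf1b and Tnfrsf19 are filled, all in blue, and the widest bar belongs to Tnfrsf11b in adults at 2.69 with an SE of 0.94.

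In adult hearts the question was whether the knock-in allele changed the same family. No member passed an edgeR adjusted p of 0.05, and neither did any other gene (0% of those tested). At an unadjusted p under 0.05, 5 of 20 members were higher, against 8.92% of all genes, and none was lower, against 7.28%. The same 5 were the members whose groups did not overlap in the upward direction, against 11.4% of all genes, and no member had lower, non-overlapping groups, against 10.4%. The 5 were Tnfrsf11a, Tnfrsf11b, Tnfrsf12a, Tnfrsf1a and Tnfrsf23. The median log2 fold change was 0.22 over the 20 members and 0.0023 over all genes. DESeq2, whose test called 3.54% of all genes, called 2 of the 20 members, Tnfrsf12a and Tnfrsf11b.

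Tnfrsf12a was at 27.1, 30.9 and 25.6 CPM in WT and at 32.7, 54.0 and 56.6 CPM in KI/KI hearts. All KI/KI hearts were above all WT hearts, with KI/KI replicate 4 just above the highest control. The log2 fold change was 0.79 (SE 0.21), or 1.72-fold, at an edgeR adjusted p of 0.231 and a DESeq2 adjusted p of 0.0137. Without KI/KI replicate 4 it was 1.00 at an edgeR adjusted p of 0.0347, and without each of the other hearts it lay between 0.65 and 0.86 and did not pass. The ligand Tnfsf12 was at 10.9, 11.0 and 10.1 CPM in WT and 11.8, 11.4 and 10.4 CPM in KI/KI hearts (0.081, SE 0.087, edgeR adjusted p = 0.652).

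Tnfrsf11b rested on few reads and on 1 heart. It had 3, 6 and 18 reads in WT and 24, 146 and 27 reads in KI/KI hearts, or 0.0965, 0.183 and 0.490 CPM against 0.715, 3.53 and 0.759 CPM. All KI/KI hearts were higher, and KI/KI replicate 5 was far above the other 2. The log2 fold change was 2.69 (SE 0.94, edgeR adjusted p = 0.272, DESeq2 adjusted p = 0.0371), and it was 1.45 (edgeR adjusted p = 0.463) without KI/KI replicate 5. The same heart had Col1a1 at 609 CPM against 236 and 312 CPM in the other KI/KI hearts, the highest adult fibroblast sum (1780 CPM) and the lowest adult cardiomyocyte sum (47109 CPM), and their part in the Tnfrsf11b value was not tested. The osteoclast pathway receptor Tnfrsf11a was at 4.18, 3.603 and 4.60 CPM in WT and 5.72, 7.26 and 5.54 CPM in KI/KI hearts (0.59, SE 0.16, edgeR adjusted p = 0.236). The ligand of both, Tnfsf11, had a highest group mean of 0.146 CPM.

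Tnfrsf1a was at 46.1, 45.1 and 52.8 CPM in WT and at 56.8, 72.1 and 60.2 CPM in KI/KI hearts, without overlap (0.40, SE 0.11, edgeR adjusted p = 0.236). Tnfrsf23 was at 3.79, 5.65 and 5.36 CPM against 6.14, 10.3 and 8.01 CPM (0.73, SE 0.23, edgeR adjusted p = 0.255). Tnfrsf1b overlapped between the groups, at 11.6, 13.6 and 16.1 CPM against 14.6, 23.6 and 16.9 CPM (0.42, SE 0.21, edgeR adjusted p = 0.361). Summed macrophage markers were 160 to 256 CPM in WT and 269 to 330 CPM in KI/KI hearts, with all 4 higher and none called by edgeR (Cd68 at a DESeq2 adjusted p of 0.0454). Cardiomyocyte sums were 62595 to 71166 CPM in WT and 47109 to 62227 CPM in KI/KI hearts, with all 4 lower and none called. The part of these cells in the receptor values was not tested. The most negative fold change belonged to the death domain receptor Tnfrsf21, at 43.0, 29.8 and 25.5 CPM in WT and 27.3, 20.1 and 24.9 CPM in KI/KI hearts, which overlapped (-0.44, SE 0.20, edgeR adjusted p = 0.336). Tnfrsf19, which fell at P1, overlapped between the adult groups, at 7.88, 5.47 and 7.48 CPM against 8.07, 7.94 and 7.17 CPM (0.16, SE 0.15, edgeR adjusted p = 0.619). Tnfsf10 was at 28.0, 35.1 and 45.6 CPM against 41.8, 56.2 and 46.0 CPM (0.41, SE 0.20, edgeR adjusted p = 0.353). The other 6 members at 1 CPM or more, Tnfrsf14, Tnfrsf18, Tnfrsf22, Tnfrsf25, Tnfrsf26 and Tnfsf13b, had log2 fold changes between -0.15 and 0.47.

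The difference between the P1 and the adult effect was tested for each gene in a fit of all 12 hearts, and 2.43% of all genes were called. Of 21 members tested, 1 was called. The effect on Tnfrsf19 was 1.61 lower on the log2 scale in cKO hearts than in KI/KI hearts (log2 difference -1.61, SE 0.23, edgeR adjusted p = 0.0116), and the call held without any 1 of the 12 hearts. For Tnfrsf12a the log2 difference was 1.35 (SE 0.35, edgeR adjusted p = 0.0695, DESeq2 adjusted p = 0.00446), and it was 1.71 (edgeR adjusted p = 0.0133) without floxed replicate 3. For Tnfrsf11b it was -3.01 (SE 0.90, edgeR adjusted p = 0.0986, DESeq2 adjusted p = 0.0156). Tnfrsf1b and Tnfrsf23, called at P1 and not in adults, were not shown to differ between the models, with log2 differences of 0.46 (SE 0.31) and 0.36 (SE 0.36) and edgeR adjusted p of 0.439 and 0.633.

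Levels of different genes were compared per kb of annotated exon, with the exons of all transcripts of a gene merged. For Tnfrsf12a these were 1932 bases in 2 merged exons, which fill nearly all of the gene. A shorter length, as of a single transcript, would raise its level per kb in every heart. Its order against Tnfrsf1a in control hearts therefore depends on the length used, while differences between groups for 1 gene do not. In floxed hearts Tnfrsf1a had the highest mean level at 18.9 ± 1.45 CPM per kb (SD, n = 3), followed by Tnfrsf12a at 12.02 ± 4.70 CPM per kb, although in floxed replicate 3 the values were 17.6 and 17.4 CPM per kb. In cKO hearts the order of this pair was the other way round in every heart, with Tnfrsf12a at 52.3 ± 5.19 and Tnfrsf1a at 23.1 ± 0.61 CPM per kb. In WT hearts Tnfrsf1a was higher than Tnfrsf12a in each heart, at 18.5 ± 1.60 against 14.4 ± 1.42 CPM per kb, and in KI/KI hearts the means of 24.3 ± 3.10 and 24.7 ± 6.78 CPM per kb did not differ beyond their spread. Of the summed level per kb of the 13 named receptors, Tnfrsf12a made up 21.3%, 21.0% and 34.4% in floxed and 55.1%, 58.1% and 58.1% in cKO hearts. In WT hearts its share was 25.5%, 30.1% and 24.5% and in KI/KI hearts 28.3%, 34.8% and 39.3%. These shares contain the Tnfrsf12a difference given above and are no separate evidence of it. They also depend on the length used for Tnfrsf12a, and a shorter one would raise them in all 4 groups.

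The next levels in adult hearts were the ligands Tnfsf12 and Tnfsf10 and the receptor Tnfrsf21, at 7.03 ± 0.34, 6.88 ± 1.68 and 7.97 ± 2.21 CPM per kb in WT, which did not differ beyond their spread. The place of Tnfsf12 is uncertain at both ages. Its length includes the 48.3% of exon bases shared with Tnfsfm13, and reads from these may not have been counted for it. In floxed hearts Tnfrsf19 at 3.91 ± 0.64, Tnfrsf21 at 3.21 ± 0.27 and Tnfsf12 at 2.87 ± 0.43 CPM per kb came next, and in cKO hearts Tnfrsf19 was at 1.43 ± 0.19 CPM per kb. Several members had lower levels in newborn controls than in adult controls. Tnfsf10 was at 1.79 ± 0.63 CPM per kb in floxed and 6.88 ± 1.68 in WT hearts, and Tnfrsf14 was at 0.499 ± 0.132 and 2.32 ± 0.14 CPM per kb. Tnfrsf19 and Tnfrsf11b went the other way, the latter at 0.823 ± 0.051 CPM per kb in floxed and 0.091 ± 0.073 in WT hearts. These age contrasts were not tested.

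**Figure D3:**
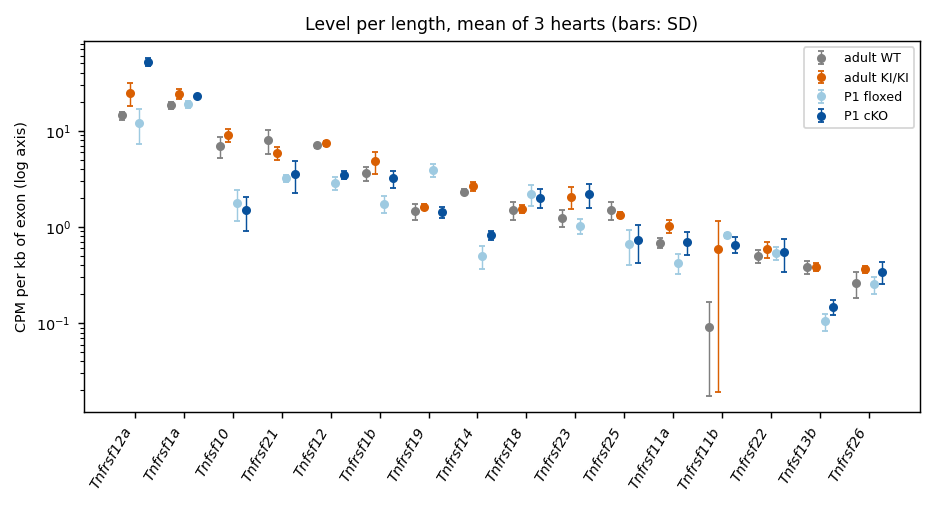
Mean level of the 16 members in CPM per kb of exon (vertical log axis, bars of 1 SD over 3 hearts) in the 4 groups, ordered by the highest group mean. Tnfrsf12a in cKO hearts is the highest point at 52.3 CPM per kb, above Tnfrsf1a at 23.1 CPM per kb, and the lowest point is Tnfrsf11b in WT hearts at 0.091 CPM per kb.

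**Figure D4:**
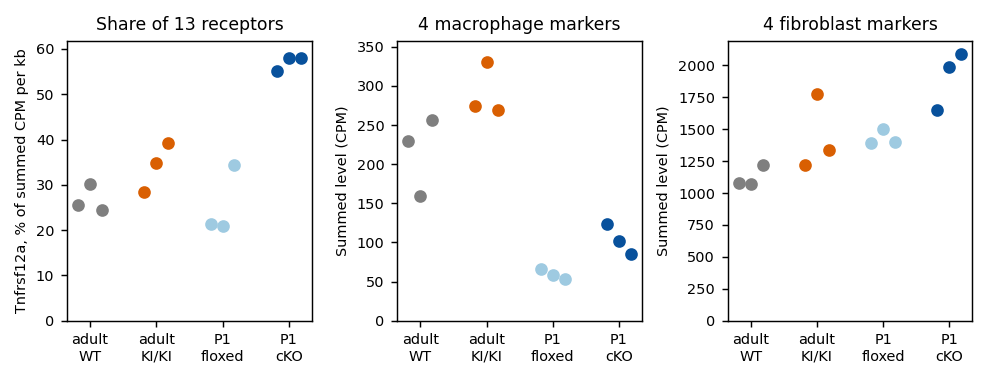
Share of Tnfrsf12a in the summed CPM per kb of 13 receptors (left, percent), summed CPM of 4 macrophage markers (middle) and summed CPM of 4 fibroblast markers (right), 1 point for each heart. The Tnfrsf12a share is 55.1% or more in cKO hearts and 39.3% or less in all others, macrophage sums are higher in cKO than floxed hearts, and the fibroblast sums of 1395 to 1502 CPM in floxed and 1653 to 2091 CPM in cKO hearts are carried by Col1a1, while Dcn and Pdgfra had lower means in cKO hearts.

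Genes of the same pathway under other symbols were read from 5 lists. Of 8 TNF family receptors with other symbols 7 were tested at P1 and 1 rose, Relt, a family receptor of lymphoid tissue, at 1.896, 1.65 and 2.37 CPM in floxed and 3.49, 4.58 and 5.81 CPM in cKO hearts (log2 fold change 1.22, SE 0.24, edgeR adjusted p = 0.0193). Of 7 such ligands 2 were tested and 1 fell, Eda, the ectodysplasin of skin appendage development, at 15.5, 14.6 and 15.7 CPM in floxed and 8.62, 10.5 and 8.99 CPM in cKO hearts (-0.71, SE 0.11, edgeR adjusted p = 0.0113). Tnf itself stayed at a mean of 0.529 CPM or less in every group. Of 22 adaptors and death signalling genes 1 rose, Traf3, an adaptor that restrains non-canonical NF-kB signalling (0.44, SE 0.090, edgeR adjusted p = 0.0221). Of 19 NF-kB pathway genes 1 fell, Ikbkg, the regulatory subunit of the IkB kinase (-0.52, SE 0.083, edgeR adjusted p = 0.0114), and none rose. With 1 call per list, these counts are too small to be set apart from the 9.32% and 7.57% of all genes called higher and lower.

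Of 23 tested NF-kB feedback and target genes 3 rose and 1 fell at P1, close to the 9.32% and 7.57% of all genes. The prostaglandin synthase Ptgs2 was at 0.858, 0.956 and 0.533 CPM in floxed and 9.64, 11.3 and 2.16 CPM in cKO hearts (log2 fold change 3.32, SE 0.67, edgeR adjusted p = 0.0217). The chemokine Ccl2 was at 1.76, 1.76 and 1.68 CPM against 12.2, 5.44 and 3.57 CPM (2.05, SE 0.49, edgeR adjusted p = 0.0345). The cytokine Il1b, named after its values were seen, rose at under 1 CPM (1.59, SE 0.42, edgeR adjusted p = 0.0458), a call lost without each of the 6 hearts (0.0656 to 0.146), and Tnfaip8 fell (-0.55, SE 0.11, edgeR adjusted p = 0.0223). The feedback inhibitors Nfkbia and Tnfaip3 were at 27.9 ± 4.13 and 6.22 ± 0.34 CPM in floxed and at 29.4 ± 5.04 and 6.67 ± 0.11 CPM in cKO hearts. The median log2 fold change was 0.35 in this list, 0.34 in the receptors under other symbols, 0.079 in the NF-kB pathway and 0.067 in the adaptors. Without floxed replicate 1 none of these 8 related genes passed, at edgeR adjusted p from 0.0689 to 0.146, and without floxed replicate 2 or cKO replicate 5 only Eda and Ikbkg did. In adult hearts no gene of the 5 lists was called by edgeR. No other gene was either, so this does not set the lists apart. The adult median log2 fold change was 0.21 in the feedback and target list, with 18 genes higher and 5 lower. It was 0.25 and 0.22 in the receptors and ligands under other symbols, 0.098 in the adaptors and 0.055 in the NF-kB pathway. Over all genes it was 0.0023.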

How the data were processed

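The authors deposited a table of raw counts of reads per gene for 12 whole-heart polyA libraries, 1 per mouse. Per the labels' processing notes, the tools were Trim Galore, Bowtie2 2.3.4.3, STAR 2.7.2b, SAMtools 1.9, HTSeq and DESeq2 on genome build mm10, and the strand setting of the counting is not given in the sources used here. Groups were taken from the sample titles. Counts were tested with edgeR 4.0.16 (R 4.3.3), using TMM scaling, filterByExpr, robust dispersions and the quasi-likelihood test on all genes, within each age, with Benjamini-Hochberg adjustment over all genes tested. The threshold was an adjusted p of 0.05, and a 2-fold change was counted beside it. The difference between models was the interaction in a fit of all 12 libraries. Levels are CPM, counts scaled to TMM-adjusted library totals. Exon lengths and overlaps came from GENCODE annotation of GRCm38, and 30 of 31 members matched 1 annotated gene. SE is the log2 fold change divided by the square root of its F statistic. The test was checked on simulated data. P-values measure the spread between mice of a group, with 3 per group.

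The members and lists were chosen with earlier results of these data known. Members at 1 CPM or more in any group were named, Tnfrsf12a in most detail, and genes of the related lists were named where they were called and at 1 CPM or more, up to 4 per list and comparison. DESeq2 1.42.0, limma-voom 3.58.1, size factors from DESeq2's method, testing unfiltered genes, a minimum of 10 counts per library, 1 fit of all libraries, non-robust dispersions, a Y-linked covariate and leaving out each library were the alternatives. The older quasi-likelihood setting of edgeR was added after the data were seen. The 1 row left out and 1 list of marker genes are not reported here. No 2 libraries of a group held identical values.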

Additional observations from a re-analysis of the deposited data

Results flagged for a closer look

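The effects of the cKO and of the KI/KI allele were past the threshold of the test of their difference for 3 of the genes described, Tnfrsf19 with a log2 difference of -1.61 (edgeR adjusted p = 0.0116), Eda with -0.73 (0.0370) and Ikbkg with -0.50 (0.0263). All 3 were lower in cKO than in floxed hearts, and their adult log2 fold changes were not called. Model and age cannot be told apart in this contrast.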

How the results depend on the processing

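No paired analysis was possible because the groups compared share no replicate numbers (1 to 3 in controls, 4 to 6 in KI/KI and cKO). The P1 calls of Tnfrsf12a and Tnfrsf19 held under every alternative listed and without any 1 heart, as did the Tnfrsf19 difference between models. Only cKO replicate 4 stood apart in sex, so a Y-linked covariate largely marks that 1 heart and is not independent of leaving it out. The P1 call of Tnfrsf23 was lost with this covariate (0.95, edgeR adjusted p = 0.0776), as were those of Il1b (0.114), Lyz2 (0.0740) and Tcf21 (0.0824). Those of Ptgs2 (0.0646), Ccl2 (0.0606) and Tcf21 (0.0509) were lost with limma-voom, and those of Tnfaip8 (0.176) and Col1a1 (0.148) in a fit of all 12 libraries, where Tnfrsf11a and Tnfrsf14 passed. With DESeq2, 2 adult members were called, 1 of them past 2-fold, Tnfrsf12a passed at 0.77, and 3 members differed between the models. Log2 fold changes near 0 changed sign for Tnfrsf22 at P1 with limma-voom (-0.046) and Tnfrsf18 at P1 with the Y-linked covariate (0.046), and the cause was not tested. Leaving out 1 heart moved the members called from 2 (without floxed replicate 1, floxed replicate 2 or cKO replicate 5) to 5 (without cKO replicate 6) at P1, from 0 to 1 (without KI/KI replicate 4) in adults and from 1 to 2 (without floxed replicate 3) for the difference between models, and Tnfrsf12a in adults ranged from 0.65 to 1.00. Uncalled values that changed sign without 1 heart at P1 were Tnfrsf18 (-0.33 to 0.023), Tnfrsf21 (-0.18 to 0.32), Tnfrsf22 (-0.28 to 0.24), Tnfrsf25 (-0.19 to 0.41) and Tnfsf10 (-0.63 to 0.029). In adults they were Tnfrsf18 (-0.068 to 0.25), Tnfrsf25 (-0.29 to 0.0051), Tnfsf13b (-0.13 to 0.11), Eda (-0.051 to 0.080), Ikbkg (-0.026 to 0.0071) and Tnfaip8 (-0.34 to 0.21). For the difference between models they were Tnfrsf11a (-0.082 to 0.33), Tnfrsf1a (-0.18 to 0.0098), Tnfrsf22 (-0.51 to 0.026), Tnfrsf25 (-0.031 to 0.57) and Tnfrsf26 (-0.30 to 0.17). The 15 members under 1 CPM had low counts, and those of Tnfsf13 and Tnfsf12Tnfsf13 also depend on how reads in shared exons were counted. With 3 hearts per group an uncalled member is not shown to be equal between groups.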
